A study of Mus musculus with 15 samples.

Results

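PGC-1a2, an isoform of the transcriptional coactivator PGC-1a, was compared with green fluorescent protein (GFP) in mouse myotubes, the multinucleate muscle cells that form when primary myoblasts differentiate in culture. The comparison takes the 3 arrays titled PGC-1a2 and the 3 arrays titled GFP, 6 of the 15 arrays of the series, and covers all 23332 transcript clusters (sets of probes that report on a gene or locus). The arrays were therefore taken by title and not by any measured value. Control cells were transduced with an adenovirus that expressed GFP alone. PGC-1a2 cells received a virus that expressed GFP and mouse PGC-1a2 from independent promoters, so GFP and the viral vector were common to both groups. Differentiating cells received virus after 48 h, with 100 infectious units per cell (the multiplicity of infection), and fresh medium after a further 12 h. RNA came from a harvest some 60 h past transduction. PGC-1a1, PGC-1a3 and PGC-1a4, with 3 arrays each and prepared in the same way, serve below for direct comparisons. Whether replicates came from separate cultures is not stated in the labels, and the p-values below therefore reflect only how far these arrays spread, which may be technical.

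PGC-1a, encoded by Ppargc1a, has no DNA-binding activity of its own and acts by docking on transcription factors, among them PPARs and estrogen-related receptors, and recruiting chromatin-modifying complexes to their target genes. The full-length form, PGC-1a1, is best known in muscle for raising mitochondrial and oxidative genes. An alternative upstream promoter and alternative splicing give shorter or altered forms, including PGC-1a2, PGC-1a3 and PGC-1a4, and PGC-1a4 has been linked to muscle growth signals. The series asks how the isoforms act on their targets, and a cluster's value pools a gene's probes, so it is read here as the gene's level and not as the use of an exon.

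All values are log2 signals as deposited, a change is a difference of group means in log2 with its moderated standard error (SE, n = 3 per group), and rose and fell are used for an adjusted p under 0.05. Array medians ran from 5.476 to 5.659 log2. The second GFP array stood apart from the other GFP arrays, with an array weight of 0.254, and the median spread (SD) within a group was 0.176 log2 for GFP and 0.113 for PGC-1a2. Results without that array are given beside those that rest on it. Muscle markers were high: the mean level of the 7 measured skeletal muscle markers was 11.28 to 11.35 log2 in the GFP arrays and 11.15 to 11.25 in the PGC-1a2 arrays. Of these 7, 1 fell (Myog, by 0.37 ± 0.09, a call lost without 5 of the 6 arrays). Of 4 proliferating myoblast markers 1 rose (Myf5) and 1 fell (Pax7). Their mean level was 7.92 to 8.27 in GFP and 8.20 to 8.26 in PGC-1a2, so the markers do not show how many cells were undifferentiated. Of 7 fibroblast markers, 7 endothelial, 5 adipocyte, 5 macrophage and 2 Schwann cell markers 0 were called. The mean level of the fibroblast markers was 4.40 to 4.99 in GFP and 4.56 to 4.61 in PGC-1a2, and that of the endothelial markers 4.24 to 4.48 and 4.26 to 4.33. Of 5 smooth muscle and pericyte markers 1 fell (Rgs5, by 0.28 ± 0.06, lost without the second or the third PGC-1a2 array with adjusted p of 0.054 and 0.056). In these bulk samples fewer cells of a type and less RNA per cell cannot be told apart.

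The Ppargc1a cluster (transcript cluster 6938093) read 8.88, 8.12 and 8.58 log2 in GFP arrays 1, 2 and 3, and 8.90, 8.88 and 8.85 in the PGC-1a2 arrays. The groups overlapped, because the first GFP array lay among the PGC-1a2 arrays. The difference was 0.35 ± 0.16 log2 (95% interval 0.01 to 0.69), which did not pass after adjustment (adjusted p = 0.22), and it was 0.14 without the second GFP array. The same cluster lay at 12.55 to 12.67 in the PGC-1a1 arrays, 10.34 to 10.61 in PGC-1a4 and 8.80 to 9.15 in PGC-1a3. The pooled signal of this cluster therefore did not show the introduced PGC-1a2, and the identity of the PGC-1a2 arrays rests on their labels.

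Between PGC-1a2 and GFP 2177 of 23332 clusters were called (9.33%), of which 1064 were higher with PGC-1a2 (4.56%) and 1113 lower (4.77%). Of the 14860 genes named by a cluster with a single symbol, 6.35% rose and 6.35% fell, and these shares are the background for every gene group below. Most changes were small. The median size of a called change was 0.42 log2, the median over all clusters was -0.03, and its 5th and 95th percentiles were -0.44 and 0.42. Changes of at least 1.5-fold numbered 264 up and 197 down, and of at least 4-fold 6 up and 0 down. The large changes were thus mostly rises. In 2171 of the 2177 called clusters the 3 PGC-1a2 arrays did not overlap the 3 GFP arrays, which was so for 24.7% of all clusters. Where groups of called genes are said below not to overlap, this describes the arrays and adds little to the call. With 3 arrays a group the smallest p of an exact permutation test is 0.1, and the calls come from limma's moderated test across all clusters. With the second GFP array left out 2122 clusters were called (9.09%), 819 up (3.51%) and 1303 down (5.58%), of which 1694 were among the 2177. When only the 6 arrays of both groups were fitted 173 were called (0.741%), 169 of them shared. After median centring 1354 were called (5.8%), 3.38% up and 2.42% down. Leaving out the third GFP array left 1338 calls, leaving out the second PGC-1a2 array 1231 and the third 1304.

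**Figure D1:**
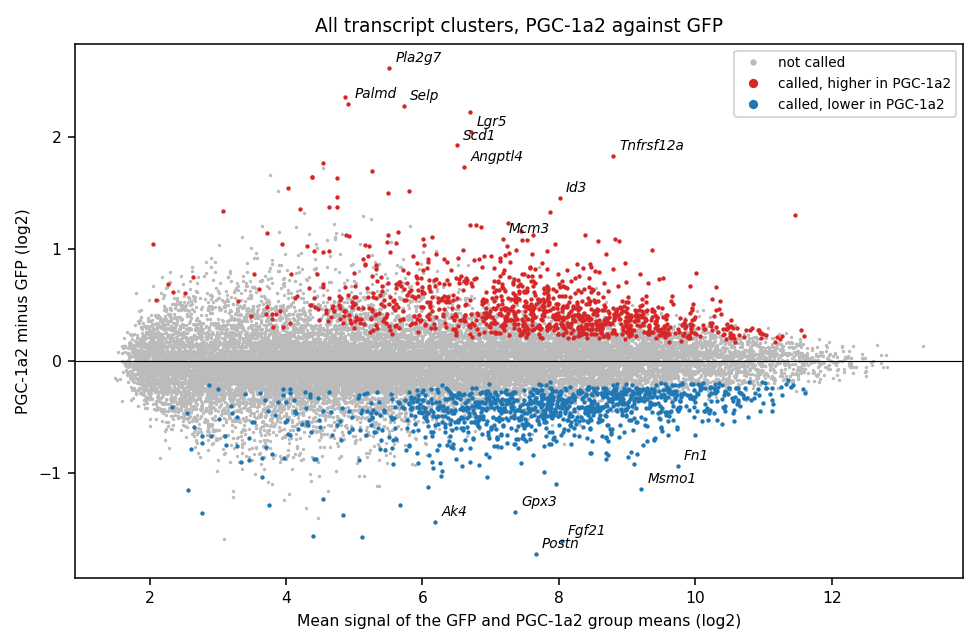
Difference between PGC-1a2 and GFP in log2 (vertical axis) against the mean log2 level of the 6 arrays (horizontal axis), a point for each of the 23332 transcript clusters, with the 1064 higher and 1113 lower clusters coloured. The points reach farther above 0 than below it, with 6 clusters past 4-fold up and 0 past 4-fold down.

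Among named genes the largest rise was that of Pla2g7 (cluster 6850534), the secreted phospholipase that inactivates platelet-activating factor. Its signal was 4.17, 4.18 and 4.28 log2 in the GFP arrays and 6.68, 7.10 and 6.68 in the PGC-1a2 arrays, a 6.1-fold difference (95% interval 2.40 to 2.82 log2, adjusted p = 9.9e-08). Selp, P-selectin, an adhesion receptor known from platelets and endothelium, read 4.50, 4.76 and 4.52 against 6.93, 6.85 and 6.83, or 4.84-fold higher. The 3 PGC-1a2 arrays lay within 0.05 log2 (SD) of each other for Selp. The 7 endothelial markers, of which 0 were called, had a low mean level of 4.24 to 4.48 log2 in GFP. Which cells gave the rise was not tested. Palmd (palmdelphin) read 3.74, 3.71 and 3.85 against 6.07, 6.47 and 5.64, a rise of 2.29 ± 0.21. The PGC-1a2 arrays spread widely for Palmd, yet the lowest of them was far above every GFP array.

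Lgr5, the R-spondin receptor that marks several stem cell pools, rose by 2.04 ± 0.11 log2 (5.84, 5.50 and 5.73 against 7.83, 7.79 and 7.56). Tnfrsf12a, the receptor for the cytokine TWEAK, rose by 1.83 ± 0.12 (8.0, 7.82 and 7.81 against 9.67, 9.81 and 9.66). Scd1, the desaturase that makes oleate, rose by 1.92 ± 0.16 (5.63, 5.42 and 5.61 against 7.68, 7.49 and 7.25). In each of these genes every PGC-1a2 array was above every GFP array, as the choice of the 12 largest rises and 12 largest falls required. Angptl4, a secreted inhibitor of lipoprotein lipase, rose by 1.73 ± 0.20, and Ache, acetylcholinesterase of the neuromuscular junction, by 1.5 ± 0.19. Ache was the more variable in GFP, at 4.64, 5.18 and 4.42, against 6.19, 6.43 and 6.13. B3galt5, a galactosyltransferase, rose by 1.51 ± 0.12. Prr9 (1.76 ± 0.17), Stap1, a signalling adaptor (1.64 ± 0.15), and Tmprss11f, a membrane serine protease (1.54 ± 0.12), complete the 12 largest rises. Prr9, Stap1, Tmprss11f and Palmd had GFP means below 3.857 log2, the lowest lower quartile of any array, so their rises start from the dim end of the scale. All 12 were called in each fit that left out 1 array and when only the 6 arrays were fitted.

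**Figure D2:**
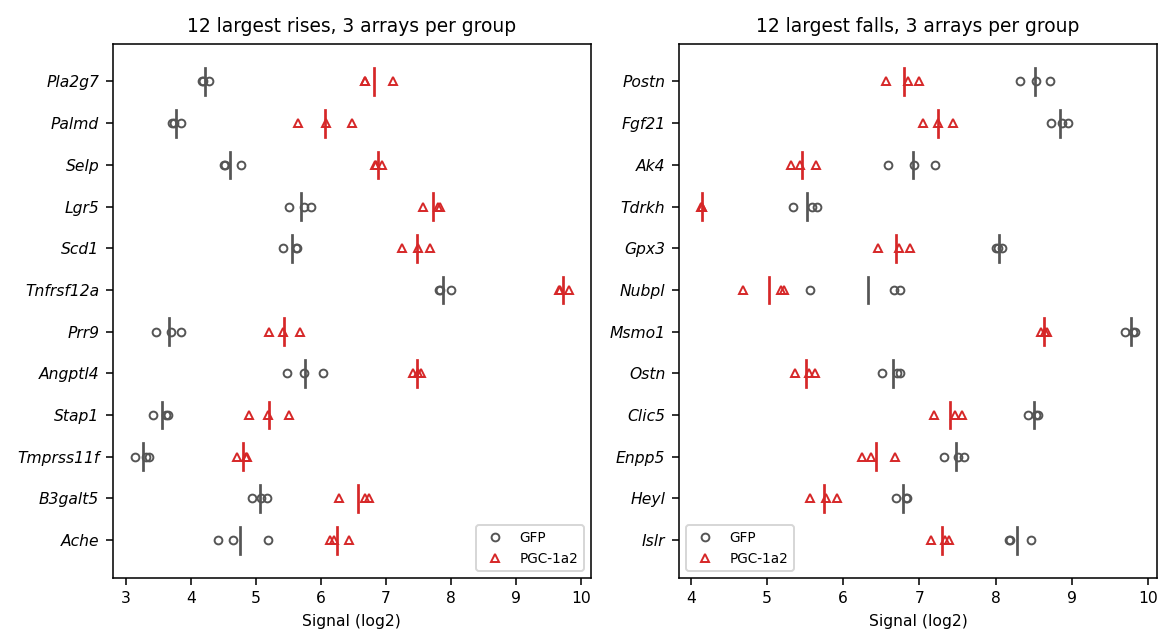
Log2 signal of the 12 largest named rises and the 12 largest named falls in each of the 3 GFP and 3 PGC-1a2 arrays, a point for each array and a bar at each group mean. The genes were drawn from called clusters whose groups do not overlap. The PGC-1a2 points of a gene therefore lie wholly above its GFP points in the rises and wholly below them in the falls. Nubpl has the widest GFP spread.

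Postn (periostin, a matricellular protein) showed the deepest fall, from 8.71, 8.32 and 8.53 log2 in the GFP arrays to 6.56, 6.85 and 6.99. Fgf21, a stress-induced hormone that muscle can secrete, went from 8.87, 8.73 and 8.95 to 7.24, 7.44 and 7.04. Ak4, an adenylate kinase of the mitochondrial matrix, went from 6.93, 6.59 and 7.21 to 5.43, 5.64 and 5.32, a fall of 1.44 ± 0.17. In all 3 genes the highest PGC-1a2 array was below the lowest GFP array, which the choice required. Gpx3, the secreted glutathione peroxidase, fell by 1.35 ± 0.10 (8.01, 8.03 and 8.08 against 6.88, 6.73 and 6.45). Tdrkh, a Tudor-domain protein of the piRNA pathway, fell by 1.38 ± 0.10, to 4.13, 4.15 and 4.15 from 5.59, 5.34 and 5.65. Msmo1, the sterol C4-methyl oxidase, fell by 1.14 ± 0.07, and Ostn, the myokine musclin, by 1.13 ± 0.15. The other falls of the 12 were those of Clic5, an intracellular chloride channel protein (-1.10 ± 0.10), Enpp5 (-1.04 ± 0.12), Heyl, a target of Notch (-1.03 ± 0.09), Islr (-0.99 ± 0.12) and Nubpl, an assembly factor of complex I (-1.29 ± 0.35). Nubpl was the least secure: its GFP arrays read 6.75, 5.56 and 6.66, and its call was lost without the first GFP array (adjusted p = 0.13), the third (0.14), and the first, second and the third PGC-1a2 arrays (0.072, 0.078 and 0.14). The other 11 falls were called in each fit that left out 1 array and when only the 6 arrays were fitted.

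Replication licensing held more rises than falls. Before S phase the origin recognition complex, Cdc6 and Cdt1 load the Mcm2 to Mcm7 helicase on origins, and this is the step that geminin blocks. Of 23 genes of licensing and the helicase, all measured, 9 rose and 1 fell, with a median of 0.28 log2 against -0.03 over all clusters. The 9 were the 6 helicase subunits, Mcm2 to Mcm7, together with Cdt1, Orc1 and Orc6. Mcm3 read 6.75, 6.50 and 6.66 log2 in the GFP arrays and 7.64, 7.70 and 7.83 in the PGC-1a2 arrays, a rise of 1.09 ± 0.10 (adjusted p = 8e-05). Mcm4 rose by 1.02 ± 0.11 (6.87, 6.63 and 6.67 against 7.60, 7.78 and 7.85) and Mcm6 by 0.96 ± 0.12 (6.85, 6.62 and 6.89 against 7.53, 7.90 and 7.81). The groups did not overlap in any of these 3 subunits. When only the 6 arrays were fitted these 3 were called, and the rest of the 9 were not. Mcm5 rose by 0.74 ± 0.10, Mcm7 by 0.71 ± 0.13 and Mcm2 by the least, 0.38 ± 0.06 (8.30, 8.15 and 8.27 against 8.64, 8.62 and 8.59). Cdt1 (0.71 ± 0.12) and Orc1 (0.65 ± 0.13) rose, and so did Orc6 (0.43 ± 0.10), which was not called without the second GFP array (adjusted p = 0.062), the second PGC-1a2 array (0.058) or the third (0.088). The fall of Orc3 by 0.27 ± 0.07 was lost without any array but the second GFP array (adjusted p = 0.066 to 0.11), so that 0 genes fell in those fits. The number that rose stayed at 8 or 9 with any array left out, but it was 3 when only the 6 arrays were fitted.

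The windows around the start sites of helicase genes are shown because all 6 helicase genes rose and such genes are classic targets of E2F, the factor that drives S-phase genes. Each window runs from 250 bases before to 50 bases after the gene's start, is taken from RefSeq on GRCm38.p6 and is written 5′ to 3′ on the gene's strand. Capitals mark TTCCCGC or TTGGCGC, an E2F-type motif searched on both strands (as GCGGGAA or GCGCCAA on the other). The Mcm3 window (chr1:20820263-20820562, minus strand) held 3 matches, of which the last 2 overlap in 1 run of capitals. The windows of Mcm5 (chr8:75109259-75109558, plus strand) and Mcm6 (chr1:128359656-128359955, minus strand) held 2 each. These 3 were picked among windows with a match. Mcm7 also held matches in both of its windows, whereas the Mcm2 window held 0, though Mcm2 rose as well, and for Mcm4 no window was used here.
Mcm3: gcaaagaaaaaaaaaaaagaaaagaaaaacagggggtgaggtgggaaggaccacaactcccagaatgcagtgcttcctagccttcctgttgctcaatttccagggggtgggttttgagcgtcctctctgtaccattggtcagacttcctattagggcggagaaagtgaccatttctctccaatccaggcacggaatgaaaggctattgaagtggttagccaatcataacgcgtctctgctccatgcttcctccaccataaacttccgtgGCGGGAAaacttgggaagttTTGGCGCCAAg
Mcm5: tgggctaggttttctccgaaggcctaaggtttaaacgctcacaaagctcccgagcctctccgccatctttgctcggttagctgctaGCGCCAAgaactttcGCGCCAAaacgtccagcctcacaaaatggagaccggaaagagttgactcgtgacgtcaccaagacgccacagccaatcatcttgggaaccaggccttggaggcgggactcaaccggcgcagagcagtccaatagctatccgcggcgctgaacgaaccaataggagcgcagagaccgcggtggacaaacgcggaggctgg
Mcm6: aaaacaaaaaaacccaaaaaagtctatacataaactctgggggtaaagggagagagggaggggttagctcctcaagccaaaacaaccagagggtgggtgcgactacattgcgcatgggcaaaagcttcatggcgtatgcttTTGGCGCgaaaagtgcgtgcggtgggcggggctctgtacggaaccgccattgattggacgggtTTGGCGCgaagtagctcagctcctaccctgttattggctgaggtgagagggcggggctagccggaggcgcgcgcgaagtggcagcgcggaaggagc
Of the 23 licensing genes 18 had a window, and 10 of the 18 held the motif (55.6%), against 11.4% of 11894 measured genes with a window and 7.79% of 27025 genes with a window in all. The share was 5 of 8 among the licensing genes that rose and 5 of 10 among the others. Over all genes it was 14% of those that rose and 12.2% of those that fell. The motif was chosen after the values were seen, and a match describes letters and not binding.

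Other cell cycle groups held fewer calls. Of 25 genes of DNA polymerases, the sliding clamp and nucleotide synthesis 4 rose and 1 fell (median 0.20 log2), and Pole2, a subunit of polymerase epsilon, led with 0.71 ± 0.13 (5.23, 4.74 and 4.95 against 5.61, 5.75 and 5.70). Chaf1b, a histone chaperone of replication, rose by 0.54 ± 0.12, a call lost without the second or the third PGC-1a2 array (adjusted p = 0.061 and 0.065). Without either of those arrays 1 gene of the list rose, and the fall, of Dut by 0.43 ± 0.10, was then lost, as it was without the first or second GFP array. Of 25 mitosis and spindle genes 0 were called in either direction (median 0.19, and 2 rises without the first PGC-1a2 array), and Ccnb2, with the smallest p, differed by 0.26 ± 0.08 (adjusted p = 0.053). Of 26 G1 genes 4 rose and 2 fell, but 2 rose without the second or the third array of either group. Ccne2, cyclin E2, rose by 0.83 ± 0.20 (7.61, 6.74 and 7.14 against 7.73, 8.11 and 8.14), and its call was lost without those arrays (adjusted p = 0.064 to 0.088). Cdkn1b, the CDK inhibitor p27, fell by 0.57 ± 0.08 (9.04, 8.92 and 9.06 against 8.55, 8.38 and 8.39). Ccnd1, cyclin D1, rose by 0.41 ± 0.08 while Ccnd2, cyclin D2, fell by 0.45 ± 0.07, and neither pair of groups overlapped. Mki67, a proliferation marker, showed -0.03 ± 0.24 with overlapping groups. When only the 6 arrays were fitted 0 genes of the polymerase, mitosis and G1 lists were called.

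**Figure D3:**
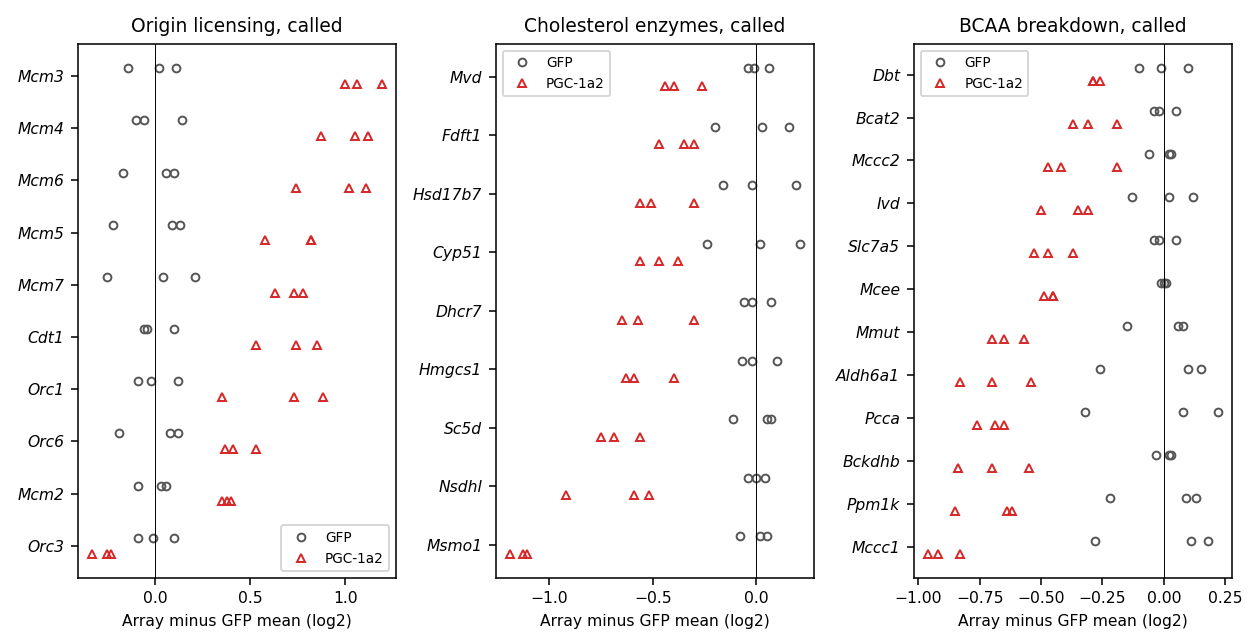
Log2 signal of each array minus the GFP mean of the gene, for the called genes of replication licensing, cholesterol synthesis and branched-chain amino acid (BCAA) breakdown, with GFP and PGC-1a2 arrays as separate points. The licensing genes lie above 0 with PGC-1a2 (Mcm3 at 1.09 on average, Orc3 below 0), and the genes of the other 2 groups lie below 0 (Msmo1 at -1.14).

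Among cholesterol synthesis enzymes the calls were all falls. The pathway runs from acetyl-CoA through mevalonate and squalene to lanosterol, whose methyl groups are then trimmed to give cholesterol, and SREBP2 switches its genes on together when sterols are low. Of 20 listed enzymes 15 were measured, 0 rose and 9 fell, with a median of -0.37 log2, and the difference was below 0 in 15 of 15. The deepest fall was that of Msmo1, a late step, which read 9.83, 9.70 and 9.80 in the GFP arrays and 8.59, 8.67 and 8.65 in the PGC-1a2 arrays (adjusted p = 2.7e-06). Nsdhl, its partner in removing the C4 methyl groups, fell by 0.68 ± 0.09 (9.03, 8.99 and 9.07 against 8.51, 8.11 and 8.44). Sc5d, the sterol C5 desaturase, fell by 0.67 ± 0.10, and Dhcr7, which makes cholesterol from its last precursor, by 0.51 ± 0.10. Hmgcs1, the synthase that makes HMG-CoA at the head of the pathway, fell by 0.54 ± 0.08 (9.85, 9.80 and 9.97 against 9.47, 9.28 and 9.24). In each of these 5 genes the groups did not overlap. Fdft1 (squalene synthase), Mvd, Cyp51 and Hsd17b7 also fell, by 0.37 to 0.47. These 4 carried the uncertainty of the count, which was 5 without the third GFP array (their adjusted p then 0.067 to 0.13) or without the second PGC-1a2 array (0.052 to 0.093), and 10 without the second GFP array. After median centring 6 fell, and when only the 6 arrays were fitted 2 did. Of 14 sterol regulators and receptors 0 rose and 2 fell. Insig2, which holds SREBP in the endoplasmic reticulum, fell by 0.64 ± 0.11 (8.30, 8.11 and 8.24 against 7.63, 7.74 and 7.36), and Lrp1 by 0.30 ± 0.07. The Lrp1 call was lost without the third GFP array (adjusted p = 0.094) or any PGC-1a2 array (0.051 to 0.092).

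Start-site windows of 3 of the enzymes that fell are shown with the CCAAT box in capitals (CCAAT, or ATTGG on the other strand), the motif of NF-Y, a factor known to work beside SREBP at sterol genes. The build, the source and the length are as above. Msmo1 (chr8:64733529-64733828, minus strand) held 3 matches, and Hmgcs1 (chr13:119690101-119690400, plus strand) and Nsdhl (chrX:72918271-72918570, plus strand) held 4 each.
Msmo1: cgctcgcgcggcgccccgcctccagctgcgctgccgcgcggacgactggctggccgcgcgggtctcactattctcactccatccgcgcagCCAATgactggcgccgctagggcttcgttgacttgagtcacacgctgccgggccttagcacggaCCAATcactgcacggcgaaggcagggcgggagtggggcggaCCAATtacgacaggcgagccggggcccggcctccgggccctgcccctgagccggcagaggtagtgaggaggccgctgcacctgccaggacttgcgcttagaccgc
Hmgcs1: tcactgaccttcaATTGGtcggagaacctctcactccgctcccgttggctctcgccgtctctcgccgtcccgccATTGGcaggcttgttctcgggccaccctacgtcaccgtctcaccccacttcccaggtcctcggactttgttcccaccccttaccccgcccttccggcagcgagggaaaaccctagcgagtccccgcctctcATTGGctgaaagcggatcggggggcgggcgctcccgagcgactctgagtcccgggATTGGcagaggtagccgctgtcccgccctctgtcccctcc
Nsdhl: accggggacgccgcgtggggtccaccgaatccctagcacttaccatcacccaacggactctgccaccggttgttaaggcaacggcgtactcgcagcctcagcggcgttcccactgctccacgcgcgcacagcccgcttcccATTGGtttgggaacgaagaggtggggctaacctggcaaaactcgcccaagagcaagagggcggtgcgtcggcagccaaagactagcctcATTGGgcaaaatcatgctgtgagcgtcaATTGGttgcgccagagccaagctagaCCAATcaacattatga
All 12 cholesterol enzymes with a window held the box in at least 1 window, the 8 that fell and the 4 that did not, against 42.4% of measured genes and 41.1% of all genes with a window. Among all genes that fell the share was 47.2%, and among those that rose 38.8%. The box was not limited to sterol genes. Among genes with a window it was in 7 of 8 licensing genes that rose, with 5 of 5 helicase genes. It was in 5 of 10 licensing genes that did not rise, 14 of 20 branched-chain genes and 9 of 24 complex I genes. This motif too was chosen after the values were seen.

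In the wider lipid genes, rises and falls were mixed. Of 24 genes of lipid uptake, lipolysis and droplets 5 rose and 5 fell. Lpl, lipoprotein lipase, rose by 0.58 ± 0.07, from 4.50, 4.54 and 4.43 log2 to 5.08, 5.07 and 5.06, alongside its inhibitor Angptl4 (5.74, 6.03 and 5.48 against 7.49, 7.53 and 7.41). Vldlr, a lipoprotein receptor, fell by 0.88 ± 0.13 (6.97, 6.73 and 7.07 against 5.91, 6.07 and 6.16), and Plin3, a droplet coat protein, by 0.49 ± 0.06. None of these 4 had overlapping groups. Without the third PGC-1a2 array 3 genes of this list rose, since the rises of Plin2 and Slc27a1 were then lost (adjusted p = 0.062 and 0.058), and each was also lost without another array (0.058 for Plin2 and 0.065 for Slc27a1). The stearoyl-CoA desaturases went opposite ways, for Scd1 rose while Scd2 fell by 0.61 ± 0.12 (9.91, 10.04 and 10.19 against 9.66, 9.37 and 9.26). Fasn, fatty acid synthase, differed by 0.13 ± 0.05 and did not pass (adjusted p = 0.16).

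Of 20 PPAR target genes 4 rose and 3 fell, and 1 fell without the second PGC-1a2 array. Cpt1a, the gate for fatty acids into mitochondria, rose by 0.60 ± 0.06 (8.05, 7.83 and 7.95 against 8.54, 8.52 and 8.55), and Pdk4, which restrains pyruvate oxidation, by 0.71 ± 0.13 (7.82, 7.46 and 7.78 against 8.50, 8.37 and 8.33). Of 19 genes of mitochondrial fatty acid oxidation 1 rose, Cpt1a, and 4 fell, while 14 did not pass (median -0.17 log2). Among the falls, Acadvl fell by 0.39 ± 0.07, Acaa2 by 0.42 ± 0.09 and Acadm by 0.26 ± 0.06. Acaa2 was at the threshold without the second PGC-1a2 array (adjusted p = 0.05), and Acadm was lost without the first or the third GFP array (0.053 and 0.058) and the second or the third PGC-1a2 array (0.072 and 0.077). In this list 2 genes fell without the first or the third GFP array and 1 without the second PGC-1a2 array, and 2 after median centring.

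Muscle is a main site of branched-chain amino acid breakdown. Of 25 genes measured 0 rose, 12 fell and 13 did not pass, the median was -0.29 log2, and 24 of 25 differences were below 0. The count was 9 to 15 with an array left out, 15 of them without the second GFP array, and 9 after median centring. Mccc1, a subunit of methylcrotonyl-CoA carboxylase in leucine breakdown, fell by 0.91 ± 0.12 (6.81, 6.42 and 6.88 against 5.87, 5.74 and 5.78). Mmut, methylmalonyl-CoA mutase, at the end of valine and isoleucine breakdown, fell by 0.64 ± 0.07 (7.36, 7.13 and 7.34 against 6.71, 6.63 and 6.58), and Mcee, the epimerase before it, by 0.46 ± 0.07. In none of these did the groups overlap. Bckdhb, of the committed branched-chain dehydrogenase, read 7.76, 7.77 and 7.71 against 7.19, 7.04 and 6.90, and Slc7a5, the leucine transporter of the cell surface, fell by 0.45 ± 0.06 from 11.14, 11.16 and 11.23. Pcca (-0.70 ± 0.12), Aldh6a1 (-0.69 ± 0.11) and Ppm1k, the phosphatase that activates the dehydrogenase (-0.71 ± 0.13), also fell. When only the 6 arrays were fitted 1 of the 12 was called, Bckdhb at the edge of the threshold (adjusted p = 0.05).

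In the other mitochondrial groups most members did not pass, and the calls were nearly all falls. Of 27 complex I subunits 0 rose and 6 fell (median -0.23 log2), led in p by Ndufs4 at -0.32 ± 0.06 (10.78, 10.77 and 10.69 against 10.41, 10.50 and 10.37), and Ndufa6 fell by 0.61 ± 0.12. Of 12 complex I assembly factors 5 fell (median -0.27), among them Timmdc1 by 0.46 ± 0.08, but this count was 1 to 3 with an array other than the second GFP array left out and 6 without that one. Of 25 genes of complexes II to V 4 fell, with 1 without the first or the third GFP array and 2 without the first or the third PGC-1a2 array. Of 22 genes of the TCA cycle and pyruvate entry 1 rose and 6 fell, with 3 falls without the first or the third GFP array or the third PGC-1a2 array. Idh3a, a subunit of isocitrate dehydrogenase, fell by 0.53 ± 0.07 (9.98, 9.88 and 9.93 against 9.54, 9.34 and 9.33), and Pdk1 by 0.64 ± 0.07 (9.10, 9.05 and 9.10 against 8.56, 8.39 and 8.38). Groups did not overlap in either gene. Of 41 genes of the large mitochondrial ribosomal subunit 3 fell and 0 rose, and 0 or 1 fell with any array left out. Of 19 glycolysis genes 0 rose and 5 fell, with 2 falls without the third GFP or the second PGC-1a2 array and 3 without the third PGC-1a2 array. Among them were Pfkp, the platelet-type phosphofructokinase (-0.58 ± 0.07), and Gys1, muscle glycogen synthase (-0.45 ± 0.06). Of 16 genes of adenylate kinases and nucleotide energy 1 rose and 3 fell, and Ak1, the cytosolic muscle enzyme, fell by 0.24 ± 0.05, far less than Ak4. The Ak1 call was lost without the third PGC-1a2 array (adjusted p = 0.057). Prdx3, the mitochondrial peroxiredoxin, fell by 0.53 ± 0.07, and of 29 glutathione and antioxidant genes 3 rose and 2 fell, with 1 rise without the third array of either group. After median centring the falls numbered 4 in complex I, 2 in its assembly, 1 in complexes II to V, 3 in the TCA cycle, 0 in the mitochondrial ribosome and 2 in glycolysis. When only the 6 arrays were fitted 1 fell in the TCA cycle and 0 in each of the others.

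**Figure D4:**
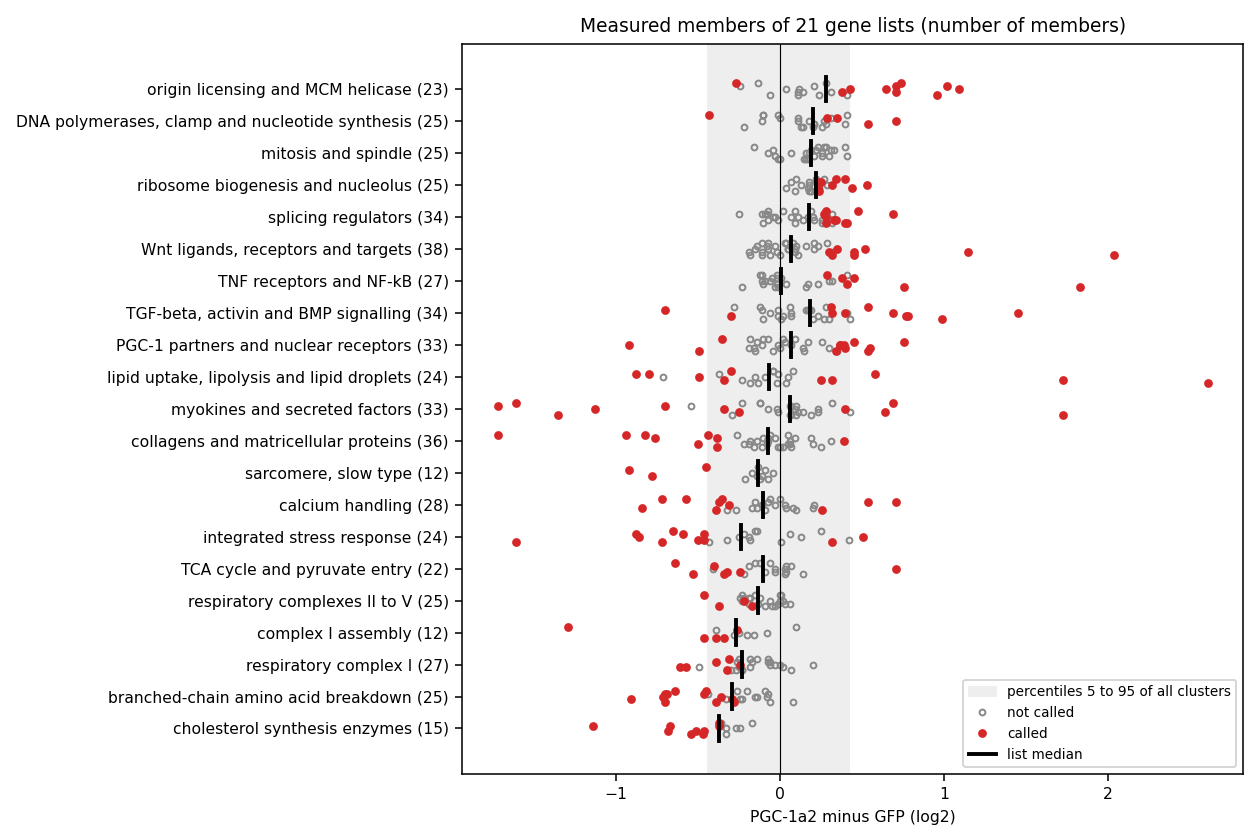
Log2 difference between PGC-1a2 and GFP for every measured member of 21 gene groups, a point for each gene, with called genes filled, a bar at the group's median and a band from the 5th to the 95th percentile of all clusters (-0.44 to 0.42). The licensing median lies at 0.28, the cholesterol median at -0.37 and the branched-chain median at -0.29.

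Among 38 Wnt ligands, receptors and targets 8 rose and 0 fell, although the median was only 0.07 log2. In the Wnt pathway a ligand bound to a Frizzled receptor stabilises beta-catenin, which acts with TCF factors, and R-spondin bound to Lgr5 strengthens the signal. Beside Lgr5, Axin2, a feedback inhibitor and standard target of the pathway, rose by 1.15 ± 0.15 (4.83, 5.45 and 4.93 against 6.31, 6.17 and 6.20). The second GFP array was highest in GFP for Axin2, and the difference was 1.34 without it. Fzd1, a receptor, rose by 0.45 ± 0.08 (7.63, 7.41 and 7.60 against 8.01, 7.92 and 8.05), Axin1 by 0.32 ± 0.06 and the transcription factor Tcf7l1 by 0.45 ± 0.09. The rise of Sfrp2, a secreted Wnt modulator, by 0.52 ± 0.12 was lost without the third GFP array (adjusted p = 0.063). Between 6 and 7 genes rose with an array left out, and 1 when only the 6 arrays were fitted.

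In the TNF receptor and NF-kB group 6 of 27 genes rose and 0 fell (median 0.01 log2, 5 or 6 with an array left out). When only the 6 arrays were fitted 1 rose. Apart from Tnfrsf12a the changes were modest. Nfkbia, the inhibitor that NF-kB itself induces, rose by 0.76 ± 0.10 (7.24, 7.09 and 7.15 against 7.95, 8.10 and 7.71). Tnfrsf1b, a receptor for TNF, rose by 0.38 ± 0.06, Tnfrsf10b, a death receptor for TRAIL, by 0.45 ± 0.08 and Tnfrsf19 by 0.41 ± 0.08. The groups did not overlap in these 4 genes.

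Of 34 genes of TGF-beta, activin and BMP signalling 9 rose and 2 fell, with a median of 0.19 log2, and 9 to 11 rose with an array left out. When only the 6 arrays were fitted 2 rose and 1 fell. The inhibitors of DNA binding, which BMP signals induce and which hold back myogenic factors, rose in 3 of 4 cases. Id3 read 7.62, 7.07 and 7.17 in the GFP arrays and 8.71, 8.82 and 8.69 in the PGC-1a2 arrays, a rise of 1.45 ± 0.14 (adjusted p = 8.7e-05). Id1 rose by 0.99 ± 0.17 (7.21, 6.62 and 6.79 against 8.0, 7.84 and 7.76) and Id2 by 0.78 ± 0.14 (9.94, 9.40 and 9.53 against 10.41, 10.55 and 10.25). The first GFP array was the highest of GFP for all 3, and it still lay below every PGC-1a2 array. Id4 showed 0.16 ± 0.18, with overlapping groups, and did not pass. Smad7, the inhibitory Smad, rose by 0.77 ± 0.07 (7.03, 7.10 and 7.17 against 7.75, 7.94 and 7.91), Tgfb2, a ligand, by 0.54 ± 0.09, and the receptor Tgfbr2 by 0.32 ± 0.06. Mstn, myostatin, which restrains muscle growth, rose by 0.69 ± 0.14 (8.25, 8.20 and 8.50 against 9.16, 9.13 and 8.72), and so did its antagonist Fst, follistatin, by 0.40 ± 0.08. Fstl1, a secreted follistatin-like protein, fell by 0.70 ± 0.08, as did Ltbp1, which binds latent TGF-beta, by 0.30 ± 0.06.

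Of 36 collagens and matricellular proteins 1 rose, 8 fell and 27 did not pass (6 to 7 fell with an array left out). The median was -0.08 log2, and 0.04 without the second GFP array. After Postn, Fn1, fibronectin, fell by 0.94 ± 0.11 (10.25, 10.19 and 10.21 against 8.99, 9.40 and 9.43). Tnc, tenascin-C, fell by 0.82 ± 0.15 and Col6a1 by 0.76 ± 0.08 (6.10, 6.32 and 6.14 against 5.38, 5.39 and 5.52). Basement membrane genes fell by less, Col4a1 by 0.38 ± 0.06 and Col18a1 by 0.44 ± 0.07. The single rise, of Thbs2 by 0.39 ± 0.10, was lost without the first or second GFP array (adjusted p = 0.061 and 0.084) or the first or second PGC-1a2 array (0.092 and 0.063). Of 7 fibroblast markers 0 were called, but 2 of them had means below 3.857 log2 in both groups. Whether the cell content changed was not tested. Of 26 selectin, integrin and adhesion genes 3 rose and 2 fell. In this list 1 rose without the third GFP or any PGC-1a2 array, and 1 fell without the first or the third GFP or the second or the third PGC-1a2 array. Itga7, a laminin receptor of muscle, fell by 0.35 ± 0.07. Sele, E-selectin, rose far less than Selp, by 0.34 ± 0.10, and its call was lost without any array but the second GFP array (adjusted p = 0.069 to 0.16).

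Of 33 myokines and secreted factors 4 rose and 7 fell. The falls included Fgf21, Ostn, Gpx3, Fstl1 and Postn, and the rises Angptl4, Mstn and Fst. In the integrated stress response ATF4 raises amino acid and stress genes. Of its 24 genes 2 rose, 9 fell and 13 did not pass, with a median of -0.24 log2. Beside Fgf21, Chac1, a glutathione-degrading enzyme, fell by 0.86 ± 0.15 (9.23, 9.52 and 9.60 against 8.35, 8.58 and 8.84), Aldh1l2 by 0.72 ± 0.09 (8.32, 8.27 and 8.37 against 7.47, 7.59 and 7.75) and the factor Atf5 by 0.65 ± 0.09. The groups stayed apart in each. Between 6 and 8 genes fell with an array left out. The 2 rises, Sesn2 (0.51 ± 0.13) and Slc7a1 (0.32 ± 0.08), were lost without the second GFP array (adjusted p = 0.075 and 0.074), the second PGC-1a2 array (0.065 and 0.088) or the third (0.11 and 0.12), and Slc7a1 also without the first or the third GFP array (0.064 and 0.051).

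Most contractile genes did not pass. Of 14 fast-type sarcomere genes 1 rose and 2 fell, of 12 slow-type genes 0 rose and 3 fell, and of 19 shared sarcomere genes 0 rose and 3 fell. Csrp3, the muscle LIM protein of the Z-disc, fell by 0.92 ± 0.08 (9.54, 9.52 and 9.61 against 8.55, 8.74 and 8.63). Myom2, a protein of the M-band, fell by 0.54 ± 0.06, and Mb, myoglobin, by 0.45 ± 0.09. Acta1, skeletal actin, showed -0.09 ± 0.05 and Ckm, muscle creatine kinase, -0.15 ± 0.06, and neither passed. Without the third PGC-1a2 array 1 shared gene fell, Myom2. The rise of Myoz1 (0.49 ± 0.13), the fast-type exception, was lost without any array (adjusted p = 0.073 to 0.11). Calcium handling showed more: of 28 genes 3 rose and 7 fell. Cacna2d1, a subunit of the muscle calcium channel, fell by 0.57 ± 0.09 (9.63, 9.47 and 9.53 against 8.96, 8.94 and 9.02), and the junctophilins, which tie the surface membrane to the calcium store, fell as well (Jph1 by 0.37 ± 0.06, Jph2 by 0.72 ± 0.15). Sln, sarcolipin, which inhibits the calcium pump, rose by 0.71 ± 0.12 (6.26, 6.28 and 6.22 against 7.09, 7.01 and 6.78), and Camk2b, a calcium-dependent kinase, by 0.54 ± 0.07.

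Of 28 myogenic and satellite cell genes 4 rose and 5 fell. Myf5, an early myogenic factor, rose by 0.45 ± 0.07 (10.21, 9.98 and 10.06 against 10.61, 10.49 and 10.50), whereas Pax7, the satellite cell factor, fell by 0.26 ± 0.06 and Myog, a factor of terminal differentiation, by 0.37 ± 0.09. The Myog call was lost without the first, second or the third GFP array (adjusted p = 0.08, 0.067 and 0.05) or the second or the third PGC-1a2 array (0.087 and 0.12). Notch receptors split: Notch3 fell by 0.77 ± 0.07 (7.55, 7.43 and 7.64 against 6.77, 6.75 and 6.78), and Notch1 rose by 0.56 ± 0.07 (7.64, 7.59 and 7.65 against 8.28, 8.18 and 8.11). Heyl, which Notch activates, fell as Notch3 did, from 6.69, 6.82 and 6.84 to 5.56, 5.78 and 5.92. Of other Notch targets, Hes1 differed by 0.24 ± 0.09 and Hey1 by -0.22 ± 0.09, and neither passed (adjusted p = 0.14 and 0.15). Without the second GFP array Hes1 rose, by 0.34 (adjusted p = 0.021). Of 18 neuromuscular junction genes 2 rose and 1 fell. Etv5, an ETS factor of synaptic nuclei, rose by 0.55 ± 0.08 beside Ache, and Musk, the synaptic kinase, fell by 0.28 ± 0.06. The Musk call was lost without the third GFP array (adjusted p = 0.051) or the third PGC-1a2 array (0.064), and lay at the threshold without the second (0.05).

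Of 33 PGC-1 partners and nuclear receptors 9 rose and 3 fell (5 rose without the second PGC-1a2 array). When only the 6 arrays were fitted 1 rose and 1 fell. Of the estrogen-related receptors, main partners of PGC-1a at mitochondrial genes, 2 of 3 fell, Esrrg by 0.92 ± 0.13 (5.98, 5.95 and 6.15 against 5.26, 5.03 and 5.02) and Esrra by 0.49 ± 0.08 (7.02, 7.03 and 7.01 against 6.65, 6.48 and 6.48). Esrrb showed -0.19 ± 0.11, with overlapping groups, and did not pass. Nr4a2, an orphan receptor induced by activity, rose by 0.76 ± 0.09 (7.31, 7.07 and 7.32 against 8.04, 7.94 and 7.98), and Rxrg, a partner of many receptors, by 0.55 ± 0.11. Nrip1, a corepressor of oxidative genes, rose by 0.40 ± 0.09, and Sirt1, the deacetylase that acts on PGC-1a, by 0.37 ± 0.08. The groups did not overlap in any of these genes apart from Esrrb.

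Among genes of RNA handling the calls were all rises, and most members did not pass. Of 34 splicing regulators 10 rose and 0 fell (median 0.18 log2), and of 25 genes of ribosome biogenesis 9 rose and 0 fell (median 0.22), with the difference above 0 in 25 of 25. Mbnl3, a muscleblind protein, rose by 0.69 ± 0.12 (6.22, 6.01 and 6.35 against 6.83, 7.04 and 6.80), Ptbp1, the polypyrimidine tract binding protein, by 0.48 ± 0.09 and Celf1 by 0.28 ± 0.05. Ubtf, which activates rRNA genes, rose by 0.34 ± 0.06 and Nop2, an rRNA methyltransferase, by 0.40 ± 0.07. These counts depended on single arrays. The splicing count was 8 without the second GFP array and 6 without the second or the third PGC-1a2 array. The ribosome biogenesis count was 4 without the second GFP array, 5 without the third, 3 without the second or the third PGC-1a2 array and 4 after median centring. When only the 6 arrays were fitted 0 of either list were called.

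Of the remaining groups, 23 IGF and insulin signalling genes had 6 rises and 3 falls, but 3 rises without the second GFP array, 2 without the third GFP or the first or the third PGC-1a2 array and 1 without the second PGC-1a2 array. Igf1 rose by 0.64 ± 0.16 (5.53, 5.59 and 5.08 against 6.04, 6.13 and 5.97), a call lost without the third GFP array (adjusted p = 0.11) or any PGC-1a2 array (0.065 to 0.10), and Adgrg1, a receptor linked to muscle growth, fell by 0.72 ± 0.08. Of 21 p53 targets 4 rose and 2 fell, with 2 rises without the second or the third PGC-1a2 array and 1 fall without the first GFP or the second PGC-1a2 array. The rises included Plk3 at 0.61 ± 0.09 and Trp53inp1 at 0.50 ± 0.07. Of 25 atrophy and autophagy genes 2 rose and 5 fell, among them Bnip3, a mitophagy receptor (-0.66 ± 0.10), and Pink1 (-0.45 ± 0.07). Without the second or the third array of either group 0 of these rose, and 3 fell without any array but the second GFP array. Of 21 genes listed as angiogenic factors 1 rose and 4 fell, with 0 rises without any array but the first GFP array and 2 falls without the second PGC-1a2 array. Esrra, a nuclear receptor also counted among the PGC-1 partners above, was 1 of the 4. Vegfa, the main angiogenic factor, fell by 0.25 ± 0.07 and was lost without any GFP array (adjusted p = 0.053 to 0.084) or the first or second PGC-1a2 array (0.11 and 0.089). Of 28 interferon and antigen presentation genes 2 rose and 3 fell, and Rsad2, an antiviral protein, rose by 0.56 ± 0.10. In that list 1 rose without any array but the first GFP array, and 1 fell without the first or the third GFP or the second or the third PGC-1a2 array. Of 21 heat shock genes 0 rose and 1 fell, with 0 falls without the third GFP or the second PGC-1a2 array. After median centring 3 IGF genes rose, 1 atrophy gene rose and 2 fell, 0 angiogenic genes rose, 1 interferon gene rose and 1 fell, and 1 p53 target fell.

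The direct tests between isoforms show where PGC-1a2 differed from the others and not only from GFP. PGC-1a2 differed from PGC-1a3 in 2164 clusters (9.27%), with 3.76% higher and 5.52% lower. It differed from PGC-1a1 in 4488 (19.2%), with 10.2% lower, and from PGC-1a4 in 5878 (25.2%). The count against PGC-1a3 was 1405, 1217 and 1386 without the first, second and the third PGC-1a2 array, and 1133 and 1105 without the first and second PGC-1a3 array. The balance of directions depended on scaling. Against PGC-1a3 it was 877 higher and 1287 lower as deposited, 1237 and 1229 with quantile normalization, and 565 and 650 with median centring. Against PGC-1a1 it was 2100 and 2388, 2519 and 2437, and 1306 and 2375 in the same order. These comparisons share the PGC-1a2 arrays with the one against GFP, so their values are set side by side. Of the 12 largest rises over GFP, all 12 were higher than in PGC-1a1 and in PGC-1a4, and 11 were higher than in PGC-1a3. The exception was Ache, at 0.42 above PGC-1a3 (adjusted p = 0.21). Among named genes in all, 11.5% were higher than in PGC-1a1, 16.6% than in PGC-1a4 and 5.15% than in PGC-1a3. The 12 were picked for high values in the same PGC-1a2 arrays, which favours such counts. Selp stood 2.24 log2 above PGC-1a3, Tnfrsf12a 1.91, Pla2g7 1.89, Prr9 1.78, Lgr5 1.71 and Stap1 1.53, the 6 largest rises over both GFP and PGC-1a3. Lgr5 was least far above PGC-1a1, by 0.93. Id3 stood 1.44 above PGC-1a3 and 1.17 above PGC-1a4, and Smad7 0.73 and 0.90.

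Among falls, Ak4 lay 1.60 log2 below PGC-1a3 and 2.38 below PGC-1a4, Postn 1.19 and 1.91, and Msmo1 0.93 and 1.17. Of the 12 largest falls all 12 lay below PGC-1a1, 8 below PGC-1a3 and 11 below PGC-1a4. The shares of named genes were 13.8%, 7.15% and 16.5% in that order. These 12 too were picked on the same PGC-1a2 arrays. Ostn, Clic5, Enpp5 and Islr did not pass against PGC-1a3, and Ostn did not pass against PGC-1a4 (-0.45, adjusted p = 0.053). Cdnf, a neurotrophic factor, was lower than GFP by 0.80 ± 0.18 and than PGC-1a3 by 0.86, and its call against GFP was lost without the third GFP array (adjusted p = 0.062) or the third PGC-1a2 array (0.054).

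Several groups ordered the isoforms differently. None of the 23 licensing genes was higher than in PGC-1a3 and 3 were lower, Mcm3 by 0.47, Mcm5 by 0.39 and Mcm2 by 0.31, whereas 12 were higher than in PGC-1a1 and 18 higher than in PGC-1a4. Among named genes in all, 5.15% were higher than in PGC-1a3, 11.5% higher than in PGC-1a1 and 16.6% higher than in PGC-1a4. Of the 15 cholesterol enzymes 9 lay below PGC-1a3, 13 below PGC-1a1 and 12 below PGC-1a4, against 7.15%, 13.8% and 16.5% of named genes. Of the 25 branched-chain genes 18 lay below PGC-1a1 and 21 below PGC-1a4, but 4 below PGC-1a3. Csrp3 differed from PGC-1a3 by -0.01 (adjusted p = 0.97), with overlapping arrays, and Pdk4 was 1.29 above PGC-1a3 and 0.95 below PGC-1a4.

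**Figure D5:**
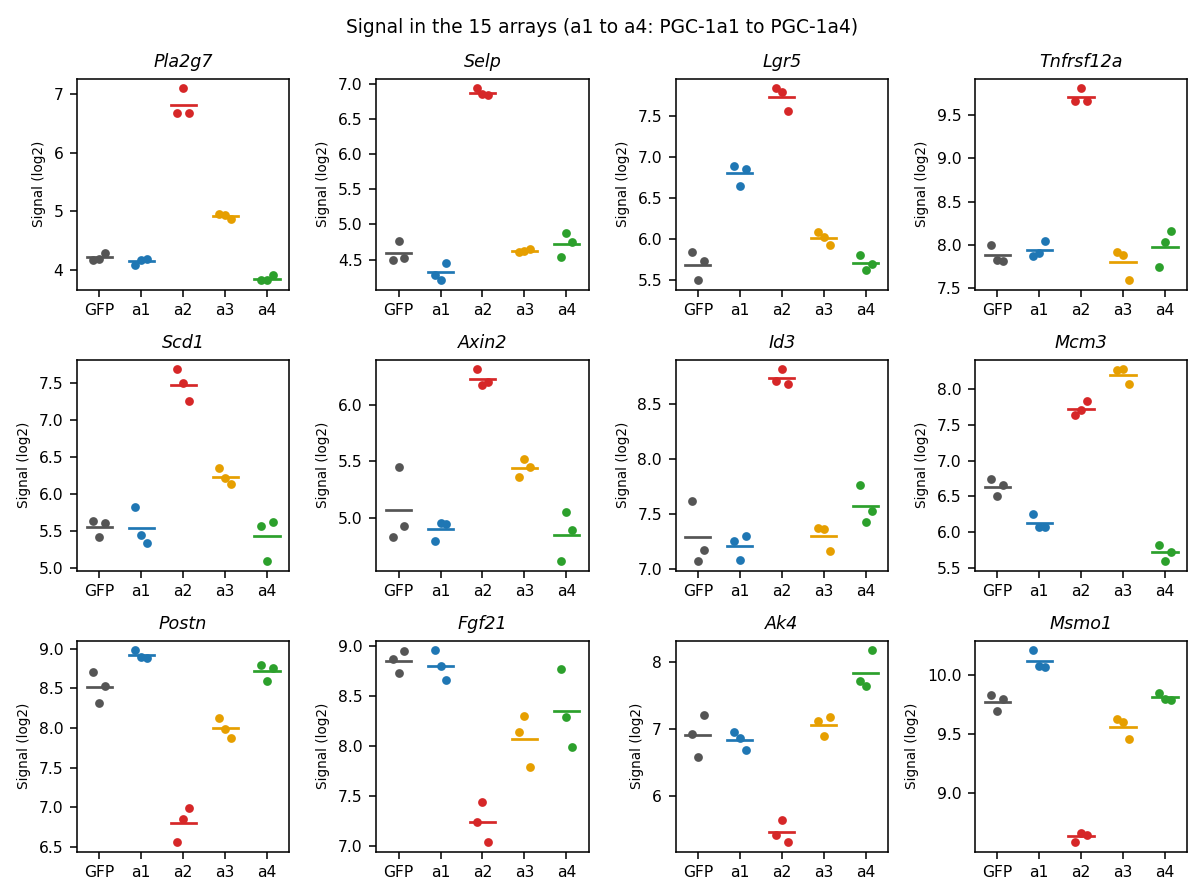
Log2 signal of 12 genes in all 15 arrays, grouped as GFP and PGC-1a1 to PGC-1a4 (a1 to a4 on the axis), a point for each array and a bar at each group mean. Pla2g7, Selp, Lgr5, Tnfrsf12a, Scd1, Axin2 and Id3 are highest with PGC-1a2, Mcm3 is higher with PGC-1a3, and Postn, Fgf21, Ak4 and Msmo1 are lowest with PGC-1a2.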

How the data were processed

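Total RNA of mouse primary myotubes was hybridised to 15 1-colour gene arrays, and each array was placed in its group by its title. For the PGC-1a4 arrays the source name speaks of isoform 1, and the titles were followed. The deposited values are log2 signals per transcript cluster, made by the authors with Partek per the submitters' processing notes. The background correction, the normalization and any batch handling were not given in sources used here, and no detection calls were used. Signal over background is therefore unknown, and the number of arrays limits the precision. Gene symbols came from the platform table: 14996 clusters had 1 symbol, 1019 several and 7317 none. Of 135 genes with several clusters, 0 had calls in opposite directions.

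Differences of group means were fitted over all 23332 clusters and 5 groups in R 4.3.3 by lmFit and eBayes of limma 3.58.1, with 10 residual and 2.09 prior degrees of freedom. The p-values were adjusted by Benjamini-Hochberg within each of 4 contrasts, and an adjusted p under 0.05 counted as a call. Every adjusted p in the text is of this kind. At the unadjusted level 5026 clusters had p under 0.05. A gene with several clusters is given by the one with the highest mean signal over all arrays. The median 95% interval reached 0.281 log2 to either side of the difference. Alternatives were quantile normalization, median centring, filters on low signal, clusters with 1 symbol only, fitting only the groups compared, array weights, a replicate block, robust estimation with a variance trend and leaving out each array. Same-numbered GFP and PGC-1a2 arrays did not correlate positively, and the main fit had no replicate block.

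The comparison was defined by array titles, but it, its gene members described here and the 49 gene lists (967 of 1203 genes measured) were chosen with earlier results of these data known. The genes named were the 12 largest rises and 12 largest falls among called, non-overlapping clusters with 1 symbol, up to 5 members of each list with the smallest p, the 6 largest rises and falls over both GFP and PGC-1a3, and Ppargc1a. Uncharacterised loci, histones and olfactory, vomeronasal and taste receptors were passed over. Chosen after their values were seen were Aldh6a1, Cdt1, Cyp51, Esrrb, Fdft1, Fst, Hes1, Hey1, Hsd17b7, Id2, Id4, Jph2, Ltbp1, Mcm7, Mstn, Mvd, Nrip1, Orc1, Orc3, Orc6, Pcca, Plin2, Ppm1k, Sfrp2, Sirt1, Slc27a1, Slc7a1, Tgfbr2, Thbs2 and Tnc. Python 3.11.15 with pandas 2.3.3 and matplotlib 3.10.9 made summaries and plots.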

Additional observations from a re-analysis of the deposited data

How the results depend on the processing

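Of the 178 named genes called, 0 changed sign under any alternative. Calls were lost for 136 when only the GFP and PGC-1a2 arrays were fitted, 39 after median centring, 44 without the second and 44 without the third PGC-1a2 array, and 7 with the replicate block. The number of clusters called against GFP was 3492 with array weights, 1354 with median centring, 173 when only the groups compared were fitted, and 1231 to 2122 with an array left out. Against PGC-1a3, with 2164 in the full fit, it was 4009, 1215, 693 and 1105 to 1902 in the same order. The causes of these shifts were not tested, except that the fits with fewer arrays had fewer residual degrees of freedom. The counts against PGC-1a1 and PGC-1a4 stayed within 1.5 times under the alternatives run. Of 30 pairs of same-numbered arrays 11 correlated above 0.1, and the GFP and PGC-1a2 pairs stood at -0.023, -0.179 and -0.122. Outside PGC-1a2, every pair of first replicates correlated positively, at 0.189 to 0.32. Paired with the first PGC-1a2 array, the same first replicates gave -0.043 to 0.038. What they shared, and whether it bears on the difference between PGC-1a2 and GFP, was not tested. With the replicate block 2160 clusters were called. No detection calls were used, so how far low signals lie above background is unknown.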

Other observations

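Several genes outside the lists also rose by a good deal, and they are given as values, chosen after the values were seen. Car3, a carbonic anhydrase abundant in slow muscle and fat, read 10.90, 10.79 and 10.76 log2 in the GFP arrays and 12.11, 12.21 and 12.02 in the PGC-1a2 arrays, a rise of 1.30 ± 0.07 (SE, n = 3 per group, limma, adjusted p = 2.7e-06). Its groups were far apart and each was tight.

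Genes known from axon guidance and neuronal adhesion were among them. Robo1, the receptor for Slit proteins, rose by 1.07 ± 0.10 (8.13, 7.82 and 8.14 against 9.20, 9.13 and 8.98), and Unc5c, a netrin receptor, by 0.92 ± 0.08 (6.04, 6.01 and 6.13 against 7.02, 6.95 and 6.96). Nrcam, a neuronal adhesion molecule, rose by 0.93 ± 0.11, Lrrn3, a leucine-rich repeat protein, by 1.33 ± 0.15, and Gpm6a, a neuronal membrane glycoprotein, by 1.46 ± 0.19. In all 5 the arrays of the groups did not overlap. No list of such genes was tested. Gas6, the ligand of the Axl and Mer kinases, rose by 0.94 ± 0.08, and Tnfsf15, a TNF family ligand, by 1.19 ± 0.15 (6.45, 6.10 and 6.24 against 7.57, 7.49 and 7.32).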
